A study of Mus musculus with 2 samples.

Results

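The genes examined were 10 targets or partners of p53 and inhibitors of the cell cycle, taken by symbol from the 32285 genes of the count matrices: *Cdkn1a*, *Mdm2*, *Ccng1*, *Trp53*, *Btg2*, *Gdf15*, *Cdkn1b*, *Cdkn1c*, *Cdkn2a* and *Cdkn2b*. All 10 had a row in both matrices. Their mRNA was counted by single-nucleus RNA-seq (snRNA-seq) in livers of male C57BL6/J mice with diet-induced metabolic dysfunction–associated steatohepatitis (MASH), a fatty liver disease with inflammation and fibrosis. There were 2 libraries, 1 per genotype. The Flox library came from mice with the genotype *Themis* flox/flox, whose *Themis* gene carries sites for Cre, although its title calls it WT, and the HKO library from *Themis* Alb-Cre mice, in which the albumin promoter drives Cre in hepatocytes. Both genotypes received the same diet for 5 months from an age of 10 to 12 weeks, with 40% of energy from fat, 20% from fructose, and 2% cholesterol. Livers of several mice were pooled per genotype and the nuclei were sorted before capture, so that no value below has a replicate check and genotype cannot be told apart from any other difference between the preparations.

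p53, encoded by *Trp53*, is a transcription factor that is kept low by MDM2, the ubiquitin ligase that marks it for degradation, and that accumulates after DNA damage and other stress. Among the genes it switches on are *Cdkn1a*, which encodes the CDK inhibitor p21, *Ccng1* (cyclin G1), *Btg2* (an antiproliferative protein) and *Mdm2* itself, which closes a negative feedback loop. *Gdf15* encodes a secreted stress cytokine and has p53 among its several regulators. The proteins of *Cdkn1b* (p27) and *Cdkn1c* (p57) inhibit the same kinases as p21, whereas those of *Cdkn2a* (p16 and ARF) and *Cdkn2b* (p15) mark senescence in many tissues, and p16 and p15 inhibit CDK4 and CDK6. In MASH liver, p21 in hepatocytes is widely used as a marker of senescence, a lasting exit from the cell cycle.

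p53 binds DNA through paired half-sites of 10 bases, and the promoter windows were searched because several of these genes were detected together below. RefSeq windows on GRCm38.p6, from 250 bases before to 50 bases after a transcript start, were found for 9 of the 10 genes in 12 windows, and *Cdkn1c* had no entry. The p53 half-site, a palindromic pattern and hence searched on both strands at once, was present in 2745 of all 32851 windows (8.36%) and in at least 1 window of 9.55% of 27025 genes. It was found for 4 of the 9 genes. Each site is printed with 10 bases on either side, on the strand of its gene, with the half-site in capitals.
Cdkn1a, chr17:29090896-29090925, plus strand, 73 bases before the start: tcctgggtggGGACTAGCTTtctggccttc
Cdkn1a, chr17:29090918-29090947, plus strand, 51 bases before the start: tggccttcagGAACATGTCTtgacatgttc
Mdm2, chr10:117710925-117710954, minus strand, 186 bases before the start: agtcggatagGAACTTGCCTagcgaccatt
Ccng1, chr11:40755452-40755481, minus strand, 185 bases before the start: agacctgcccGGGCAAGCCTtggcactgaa
Trp53, chr11:69580274-69580303, plus strand, 75 bases before the start: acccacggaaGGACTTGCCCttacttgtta
A match describes the letters of the window and no binding was measured. Of a list of other p53 targets, 8 of the 29 with a window held a half-site.

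The Flox library held 9363 barcodes and 58171337 UMIs, and the HKO library 10748 and 40475938, with median depths of 6216 and 2227.5 UMIs, and 27 barcodes occurred in both. After nuclei with few genes and probable doublets were removed, 8659 and 9801 nuclei remained. Nuclei were assigned to cell types by the UMIs of marker genes, none of which is among the 10 genes, which gave 5871 and 4566 hepatocytes with median depths of 7425 and 5729.5 UMIs. All 16 hepatocyte markers were detected in them, at a sum of 12672 and 9532 CPM, that is, UMIs of the genes per 1000000 UMIs counted in these nuclei. *Themis* itself was at 163 CPM in hepatocytes of the Flox library and at 246 CPM in those of the HKO library, against the direction that the label HKO names. Macrophage markers summed to 340 and 386 CPM in hepatocytes and B cell markers to 123 and 128 CPM, and those of 8 further types to at most 45.6 CPM each. Counts at the 3′ end do not tell whether an exon was deleted, and "the library labelled HKO" is meant wherever HKO stands. Pairs of values are given with Flox first. Intervals in parentheses are 95% intervals and cover counting error only, not differences between nuclei, mice or preparations. A gene is called at least 2-fold different only with at least 20 UMIs in the nuclei compared.

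The comparison of the genotypes in hepatocytes asks how these genes differ where *Themis* was to be deleted. *Cdkn1a* was the only one of the 10 with a difference of at least 2-fold, and it was higher in the library labelled HKO. *Cdkn1a* (ENSMUSG00000023067; GRCm38 chr17:29090976-29100727, plus strand) had 524 UMIs in Flox hepatocytes, or 11.4 CPM (10.4 to 12.4), and 1102 in HKO hepatocytes, or 40.1 CPM (37.8 to 42.6), which gives a ratio of 3.52 (3.17 to 3.92). *Mdm2* (ENSMUSG00000020184; chr10:117688875-117710758, minus strand) was higher as well, at 112 CPM (109 to 115) and 154 CPM (150 to 159), which gives a ratio of 1.38 (1.32 to 1.43). Both intervals of the ratio lie above 1. Of the 8 genes with at least 20 UMIs, 1 was at least 2-fold higher, where 6.92% of all 14741 genes with that many UMIs were, and 0 were at least 2-fold lower, where 5.02% of all genes were.

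The other p53-related genes did not share the direction of *Cdkn1a*. *Gdf15* (ENSMUSG00000038508; chr8:70629393-70632456, minus strand) was lower in the library labelled HKO, at 107 CPM (104 to 110) and 84.3 CPM (80.9 to 87.9), which gives a ratio of 0.79 (0.75 to 0.83). *Trp53* (ENSMUSG00000059552; chr11:69580359-69591873, plus strand) was also lower, at 58.6 and 49.6 CPM, which gives a ratio of 0.85 (0.79 to 0.90). *Ccng1* was at 47.2 and 44.3 CPM, which gives a ratio of 0.94 (0.87 to 1.01), and *Btg2* at 83.9 and 85.2 CPM, which gives a ratio of 1.01 (0.96 to 1.07), so that neither interval excluded 1.

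Among the CDK inhibitors other than *Cdkn1a*, differences were small or the counts too few to show one. *Cdkn1b* was at 83.4 CPM (80.8 to 86.1) and 89.3 CPM (85.8 to 92.9), which gives a ratio of 1.07 (1.02 to 1.13). *Cdkn1c* had 22 and 17 UMIs in all hepatocytes, a ratio of 1.29 (0.65 to 2.55). The senescence-associated inhibitors at the *Cdkn2a* and *Cdkn2b* locus were at the limit of detection, with 2 UMIs of *Cdkn2a* in each library and with 0 and 2 UMIs of *Cdkn2b*. A count of 0 in Flox hepatocytes allows up to 0.0652 CPM of *Cdkn2b*, and a difference of either gene was not detectable at this depth. The matrices count the p16 and ARF transcripts of *Cdkn2a* as 1 gene.

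**Figure D1:**
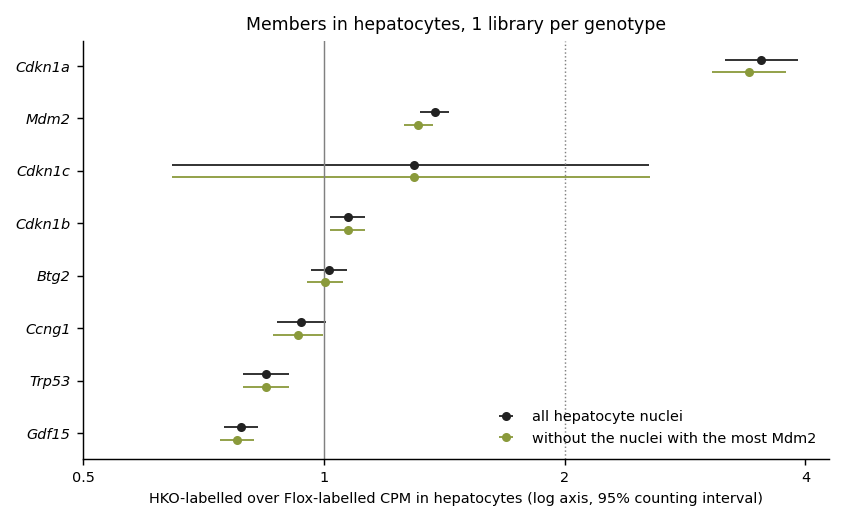
Ratio of CPM in hepatocytes, library labelled HKO over library labelled Flox, for the 8 genes with at least 20 UMIs, on a log axis with 95% counting intervals, with all hepatocyte nuclei (black) and without the nuclei with the most *Mdm2* (green). *Cdkn1a* stands at 3.52 and 3.40, past the dotted line at 2-fold, and the other 7 genes lie under it on both scores.

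The HKO hepatocytes were shallower, and *Cdkn1a* was therefore compared among nuclei of like depth. Its ratio was 3.24 (2.12 to 5.14) in hepatocytes with 1000 to 4000 UMIs, 3.47 (2.94 to 4.10) with 4000 to 8000 UMIs and 3.65 (3.14 to 4.26) with at least 8000 UMIs. The ratio of *Mdm2* depended on depth, at 2.26 (1.93 to 2.67), 1.28 (1.21 to 1.36) and 1.27 (1.19 to 1.36) in the same order. In the shallowest range, 6 HKO nuclei described below carried part of that difference, and without them the ratio was 1.62 (1.37 to 1.93) for *Mdm2* and 2.28 (1.47 to 3.67) for *Cdkn1a*. *Gdf15* was lower in the library labelled HKO in each range of depth, with ratios of 0.91 (0.75 to 1.10), 0.80 (0.75 to 0.86) and 0.71 (0.65 to 0.77), of which the first did not exclude 1. In the hepatocytes without a zone, described below, *Gdf15* was higher in that library.

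Detection in single nuclei gave the same order after 1000 UMIs had been drawn from every nucleus (thinning), which left out 50 and 137 shallower hepatocytes. *Cdkn1a* was detected in 56 of 5821 Flox hepatocytes (0.962%, 0.728 to 1.25) and in 163 of 4429 HKO hepatocytes (3.68%, 3.15 to 4.28). Before thinning, the shares were 6.49% and 15.7% of all 5871 and 4566 hepatocytes. HSCs (hepatic stellate cells), in which few UMIs were found, showed *Cdkn1a* in 3 of 780 nuclei (0.385%) and 1 of 953 (0.105%). Their median depths before thinning were 1787 and 1500 UMIs, against 7445 and 5826 in hepatocytes. Macrophages showed *Cdkn1a* in 3.84% and 2.85% of nuclei and endothelial cells in 1.82% and 1.45%. A background level was not estimated. *Mdm2* was detected in 10.3% (9.57 to 11.2) and 13.8% (12.8 to 14.9) of hepatocytes, and *Gdf15* in 8.85% (8.13 to 9.61) and 7.0% (6.27 to 7.79). For *Gdf15*, the share in HSCs was 0.385% and 0.630%. Shares were 7.68% and 7.34% for *Btg2*, 4.91% and 3.84% for *Ccng1*, 5.22% and 4.58% for *Trp53*, and 7.75% and 8.40% for *Cdkn1b*. *Cdkn1c* was found in 3 and 1 nuclei, *Cdkn2a* in none and *Cdkn2b* in 1 nucleus of the library labelled HKO.

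At this depth most hepatocytes showed none of the 10 genes, 62.8% in the Flox and 61.5% in the HKO library. A single gene was detected in 29.9% and 30.2%, a pair in 6.12% and 6.66%, 3 genes in 1.05% and 1.45%, and 4 or more in 7 and 9 nuclei. UMIs were spread unevenly over HKO hepatocytes for some of the genes. The variance over the mean of the thinned UMIs, which is 1 for Poisson counts, was 1.12 and 3.94 for *Mdm2*, 1.15 and 1.83 for *Cdkn1a*, and 1.24 and 2.01 for *Btg2*, while it was 1.02 in both libraries for *Trp53* and 1.04 and 1.06 for *Cdkn1b*.

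Levels were next set in order across 6 cell types, hepatocytes, HSCs, endothelial cells, macrophages, cholangiocytes and T cells, and *Cdkn1a* changed its place in that order between the libraries. In the Flox library it was highest in macrophages, at 49.8 CPM (38.4 to 63.5), followed by endothelial cells at 30.2 CPM (20.8 to 42.4), whose interval overlapped, and then by hepatocytes. In the library labelled HKO hepatocytes stood highest at 40.1 CPM, with macrophages at 35.1 CPM (27.5 to 44.1) and overlapping intervals. Its ratio was 0.70 (0.497 to 0.999) in macrophages and 0.67 (0.39 to 1.16) in endothelial cells, so that the higher level in hepatocytes was not shared by these types. HSCs held 6 and 3 UMIs of *Cdkn1a*, and cholangiocytes and T cells 0 in Flox and 1 each in HKO. B cells, with 49 and 55 nuclei, were not among the 6 types.

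Among the 6 types, *Gdf15* was highest in hepatocytes of both libraries, with macrophages next at 26.8 CPM (18.7 to 37.3) and 31.2 CPM (24.1 to 39.8), which gives a ratio of 1.16 (0.76 to 1.81). *Mdm2* was highest in macrophages, at 134 CPM (115 to 156) and 171 CPM (153 to 189), with hepatocytes next and overlapping intervals, and lowest in HSCs at 51.2 and 64.8 CPM. Its ratio was above 1 in 5 of the 6 types, at 1.27 (1.06 to 1.53) in macrophages, 1.39 (1.06 to 1.83) in endothelial cells, 1.27 (0.94 to 1.72) in HSCs and 1.89 (0.80 to 5.42) in cholangiocytes, and below it in T cells at 0.82 (0.33 to 2.04). Higher *Mdm2* in the library labelled HKO was thus not confined to hepatocytes.

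Among the same 6 types, *Trp53*, *Btg2* and *Cdkn1b* were highest in T cells in both libraries, with intervals that overlapped those of macrophages for *Trp53* and, in HKO, those of cholangiocytes for *Cdkn1b*. T cells carried *Btg2* at 383 and 382 CPM, *Cdkn1b* at 521 and 389 CPM, and *Trp53* at 167 and 118 CPM. Hepatocytes had the lowest *Cdkn1b* of all 6 types in both libraries, and their intervals did not overlap with those of endothelial cells, the next lowest at 159 and 160 CPM. *Btg2* differed by type, with a ratio of 1.79 (1.22 to 2.66) in HSCs, 1.47 (1.13 to 1.92) in endothelial cells and 0.78 (0.65 to 0.94) in macrophages. *Ccng1* varied little, between 32.0 and 47.2 CPM in hepatocytes, HSCs, endothelial cells and macrophages, and rested on 2 and 11 UMIs in T cells.

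The remaining inhibitors were found mainly outside hepatocytes. *Cdkn1c* was highest in endothelial cells, with 25 and 10 UMIs at 22.9 CPM (14.8 to 33.8) and 7.81 CPM (3.75 to 14.4), which gives a ratio of 0.34 (0.15 to 0.74). Among the 6 types, this was the only call of at least 2-fold outside hepatocytes, 1 of 8 genes with at least 20 UMIs in endothelial cells. There, 3.29% of 9632 genes were at least 2-fold lower and 2.28% higher. In B cells, outside the 6 types, *Btg2* had 29 and 12 UMIs, a ratio of 0.43 (0.20 to 0.87). The share of all genes was not counted in B cells. *Cdkn2a* was sparse everywhere, with 7 and 2 UMIs in macrophages and 4 and 5 in endothelial cells, and *Cdkn2b* had at most 2 UMIs in any of the 6 types. In HSCs, macrophages, cholangiocytes and T cells, 0 of 5, 7, 5 and 4 genes were called in either direction. The shares of all genes called higher there were 2.59%, 2.5%, 9.53% and 2.72%, and lower 4.91%, 4.35%, 5.88% and 6.52%.

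**Figure D2:**
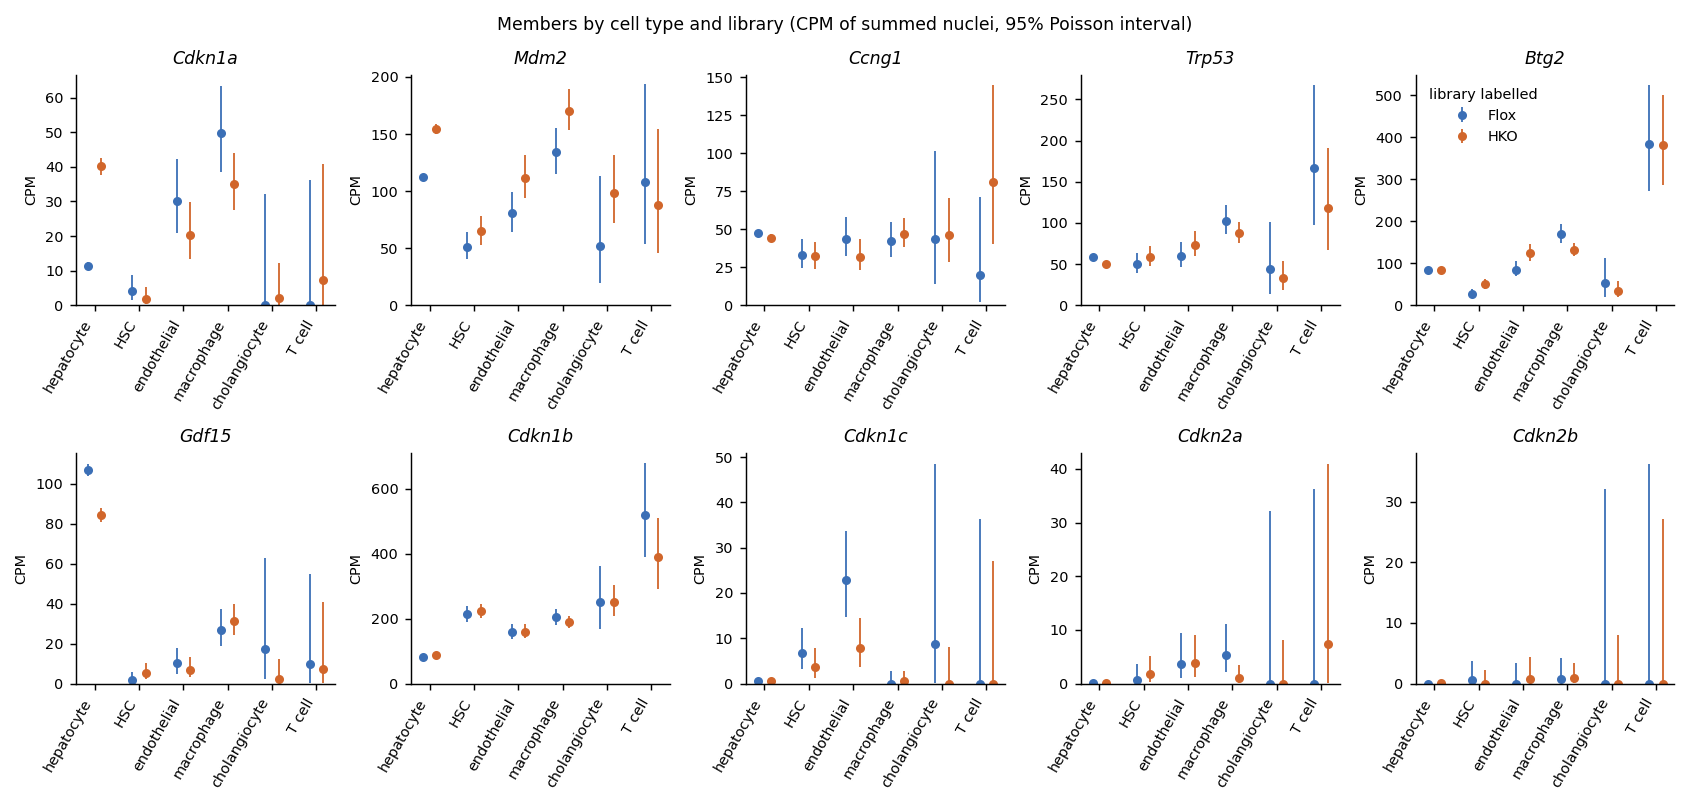
CPM of the 10 genes in 6 cell types, with the library labelled Flox in blue and that labelled HKO in orange. Points are sums over all nuclei of a type and bars are 95% Poisson intervals. For *Cdkn1a* the hepatocyte points lie at 11.4 and 40.1 CPM with no overlap, while in macrophages and endothelial cells the orange point is the lower one.

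Hepatocytes were next divided by their place between the portal vein (zone 1) and the central vein (zone 3), by the share of zone 3 markers among the UMIs of 10 zone 1 and 12 zone 3 markers. The score was cut at 0.111 and 0.571 into 3 ranges, with 852 and 769 nuclei within 0.05 of a cut. *Cdkn1a* showed no gradient. In the Flox library it was at 9.25 CPM (7.76 to 10.9) in zone 1, 15 CPM (13.1 to 17.1) in zone 2 and 9.56 CPM (8.11 to 11.2) in zone 3, so that the middle range stood above both others. HKO hepatocytes held 36.5, 38.7 and 34.3 CPM of it, with overlapping intervals. Its ratio of HKO to Flox was 3.94 (3.22 to 4.85), 2.59 (2.20 to 3.05) and 3.59 (2.91 to 4.44) from zone 1 to zone 3.

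*Gdf15* was lowest in zone 1 in both libraries. It was at 89.5, 121 and 110 CPM from zone 1 to zone 3 in Flox and at 60.9, 79.6 and 96.6 CPM in HKO, so that zone 2 stood highest in Flox, with no overlap with zone 3, and zone 3 in HKO. Zone 3 stood over zone 1 by 1.23 (1.14 to 1.32) and 1.59 (1.41 to 1.78). *Cdkn1b* was higher near the portal vein in Flox, with zone 3 over zone 1 at 0.73 (0.68 to 0.79), while in HKO the interval included 1, at 0.96 (0.86 to 1.07), and the difference between the libraries was not tested. *Mdm2* was nearly level, with zone 3 over zone 1 at 1.05 (0.98 to 1.12) and 1.02 (0.94 to 1.11), and its ratio of HKO to Flox was 1.32, 1.33 and 1.28 from zone 1 to zone 3. None of the 7 genes with enough UMIs differed by 2-fold between zones 1 and 3, where 5.62% of genes were higher in zone 3 and 5.46% lower in Flox, and 4.64% and 4.16% in HKO.

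Hepatocytes with fewer than 5 UMIs of zone markers had no zone, and in the library labelled HKO several of the 10 genes were at higher levels in them than in hepatocytes with a zone. There were 94 such nuclei in Flox and 348 in HKO, with median depths of 1152.5 and 1614.5 UMIs. In the library labelled HKO they held *Cdkn1a* at 139 CPM, *Gdf15* at 302 CPM, *Mdm2* at 430 CPM and *Btg2* at 203 CPM. Part of these sums came from 4 nuclei with very high *Mdm2*, described next, and without them the levels were 114 CPM of *Cdkn1a* against 36.2 CPM in nuclei with a zone, a ratio of 3.14 (2.52 to 3.87). Likewise *Gdf15* was then at 283 against 76.9 CPM, which gives a ratio of 3.68 (3.21 to 4.21), and *Btg2* at 182 against 81.1 CPM, which gives a ratio of 2.25 (1.90 to 2.64). The ratios were smaller for *Mdm2* at 1.92 (1.68 to 2.19), *Ccng1* at 1.76 (1.35 to 2.26), *Cdkn1b* at 1.60 (1.32 to 1.93) and *Trp53* at 1.5 (1.14 to 1.93). Of 7 genes with at least 20 UMIs, 5 were at least 2-fold higher with the 4 nuclei, where 13.1% of 13233 genes were, and 3 without them, where 13.1% of 13231 genes were. None of the 7 was at least 2-fold lower, where 8.02% and 8.14% of genes were. The ratio of HKO to Flox for *Gdf15* was 2.27 (1.45 to 3.73) in nuclei without a zone, from 21 UMIs in Flox. In nuclei with a zone it was 0.72 (0.68 to 0.76). Both values leave out the nuclei with very high *Mdm2*.

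Nuclei without a zone were shallow, and the comparison was repeated among HKO hepatocytes of 1000 to 4000 UMIs. There, 141 nuclei without a zone exceeded 871 with a zone by 3.07 (1.86 to 4.92) for *Cdkn1a*, 2.47 (1.79 to 3.35) for *Gdf15*, 2.03 (1.48 to 2.74) for *Btg2*, 2.06 (1.27 to 3.21) for *Ccng1* and 1.82 (1.43 to 2.30) for *Mdm2*. The intervals of *Trp53*, at 1.20 (0.70 to 1.95), and *Cdkn1b*, at 1.41 (0.99 to 1.97), included 1. In that range 4 of the 7 genes were at least 2-fold higher and 0 lower, where 6.33% and 7.75% of 9710 genes were. Other markers moved with this class. The same was counted for markers of disease-associated hepatocytes (daHep), which are described in MASH. Among nuclei of 1000 to 4000 UMIs, *Nrg1* was 3.02-fold (2.26 to 3.98) and *Klf6* 3.33-fold (2.49 to 4.40) higher without a zone. *Anxa2* was 4.01-fold (2.11 to 7.32) and *Sox4* 4.80-fold (2.23 to 9.87) higher, and the interval of *Jun*, at 1.30 (0.90 to 1.82), included 1. The ratios at all depths leave out the nuclei with very high *Mdm2*. They were 5.82 (5.20 to 6.5) for *Nrg1* and 4.46 (3.93 to 5.04) for *Klf6*. *Anxa2* gave 4.06 (2.78 to 5.76), *Sox4* 9.55 (6.30 to 14.1) and *Jun* 1.85 (1.58 to 2.16). In the same nuclei of all depths, the summed hepatocyte markers were at 8761 CPM without and 9558 CPM with a zone. Cholangiocyte markers were at 129 and 42.9 CPM, T cell markers at 37.2 and 2.71 CPM, and macrophage markers at 275 and 390 CPM. The part of these markers in the difference was not tested. In the Flox library the 94 nuclei held 8 UMIs of *Cdkn1a*, at 47.6 against 11.3 CPM with a zone (4.23, 1.81 to 8.39), but only 1 of these UMIs lay in the range of 1000 to 4000 UMIs. The intervals of *Gdf15*, at 1.17 (0.72 to 1.79), *Mdm2*, at 1.22 (0.77 to 1.83), and *Ccng1*, at 1.01 (0.43 to 1.99), included 1 in Flox, while *Btg2* was at 1.70 (1.09 to 2.54), *Trp53* at 1.83 (1.08 to 2.90) and *Cdkn1b* at 1.72 (1.10 to 2.56). Of 8 genes with at least 20 UMIs in Flox, 1 was at least 2-fold higher and 1, *Cdkn1c* with 0 of its 22 UMIs, lower, where 18.5% and 25.8% of 13799 genes were. In the range of 1000 to 4000 UMIs these were *Trp53*, at 3.21 (1.77 to 5.47), and *Ccng1*, with 2 UMIs without a zone, of 7 genes, where 13.3% and 19.5% of 8757 genes were.

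**Figure D3:**
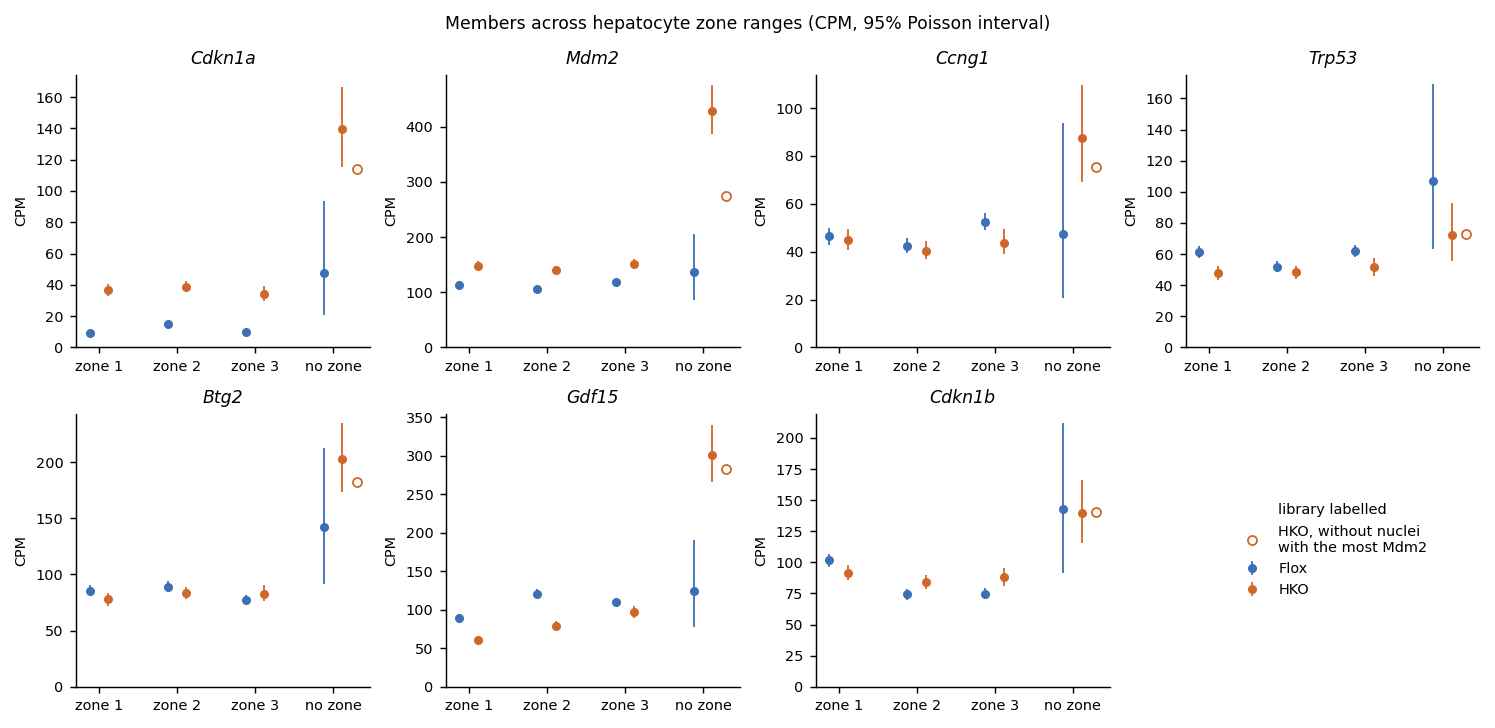
CPM of 7 genes in hepatocytes of zone 1 (portal), zone 2, zone 3 (central) and without a zone, for the libraries labelled Flox (blue) and HKO (orange), with 95% Poisson intervals. Open circles give HKO nuclei without a zone after the nuclei with the most *Mdm2* were left out, where *Cdkn1a* remains at 114 CPM and *Gdf15* at 283 CPM.

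The high variance of *Mdm2* came from a few nuclei. With a rule set after the data had been seen, at least 10 *Mdm2* UMIs and at least 4 per 1000 UMIs of the nucleus, 7 nuclei were found, all in the library labelled HKO. Of these 6 were hepatocytes, 4 without a zone and 2 in zone 3, and 1 met no type's rule. Their *Mdm2* UMIs were 83 of 2079 UMIs in all, 46 of 1556, 18 of 1056, 52 of 3168, 19 of 1183, 16 of 2878 and 10 of 2479. Just outside the rule stood Flox hepatocytes with 25 UMIs of 8416 and with 8 UMIs of 1087.

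The same nuclei were rich in other p53 targets. Listed in the same order, they held 8, 27, 2, 7, 13, 0 and 10 UMIs of *Cdkn1a*, and 3, 17, 1, 2, 15, 0 and 4 UMIs of *Btg2*, so that the nucleus without *Cdkn1a* also lacked *Btg2*. *Gdf15* was found in all 7, with 9, 1, 3, 9, 3, 3 and 1 UMIs, and *Ccng1* in 5 of them, with 1 to 5 UMIs each. *Trp53* and *Cdkn1b* had 0 UMIs in all 7 nuclei, and the same held for *Cdkn1c*, *Cdkn2a* and *Cdkn2b*. With 14399 UMIs in all, the exact intervals around these zeros reached up to 5.17 times the level of other HKO hepatocytes for *Trp53* and 2.87 times for *Cdkn1b*.

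Summed over the 7 nuclei, *Cdkn1a* was at 4653 CPM against 38.7 CPM in the 4560 other HKO hepatocytes, a ratio of 120 (92.5 to 154). The intervals leave out the spread between the 7 nuclei, of which 1 held 27 of the 67 *Cdkn1a* UMIs. *Btg2* was 34.6-fold (24.9 to 46.9), *Gdf15* 24.2-fold (16.1 to 34.8) and *Ccng1* 20.6-fold (10.9 to 35.3) higher, and *Mdm2*, which chose the nuclei, was at 16946 against 147 CPM. Apart from these genes, the list of other p53 targets was counted in the same nuclei. Of 36 with at least 20 UMIs, 22 were at least 2-fold higher and 10 at least 2-fold lower, all 10 at 0 UMIs. Of all 13233 genes, 17.9% were at least 2-fold higher and 71.2% lower, and 69.2% were at 0 in so few UMIs. Each nucleus held UMIs of 10 to 16 of the listed targets, and their sum was 26599 CPM against 1779 CPM.

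Among these targets, *Plk2*, a polo-like kinase, had 96 UMIs and a ratio of 235 (188 to 291), and *Trp53inp1*, a p53-induced nuclear protein, 59 UMIs and a ratio of 17.3 (13.2 to 22.4). *Apaf1*, of the apoptosome, had 19 UMIs and a ratio of 114 (67.5 to 180), and *Gtse1*, a p53-binding protein of dividing cells, 22 UMIs and a ratio of 471 (281 to 758). *Zmat3*, a p53-induced RNA-binding protein, had 21 UMIs and a ratio of 37.9 (23.4 to 58.2). *Plk3* went the other way, with 0 UMIs and an interval of the ratio that reached up to 0.79. The receptors *Ddr1*, with 75 UMIs in 4 nuclei, and *Notch1*, with 122 UMIs in all 7, were among the 10 leading genes and were named after their values had been seen. Of the daHep markers, *Nrg1* and *Jun* had 1 UMI each, and *Anxa2*, *Sox4* and *Klf6* had 0. These counts are too few to show a lower level than in other HKO hepatocytes. The intervals of the ratio reached up to 4.46 for *Nrg1*, 3.51 for *Jun*, 3.02 for *Klf6*, 22.8 for *Anxa2* and 49.5 for *Sox4*.

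The 6 hepatocytes among them held 198 of the *Mdm2* UMIs of HKO hepatocytes, or 4.67%, and 40 of the *Cdkn1a* UMIs. Without them, the ratio of HKO to Flox in hepatocytes was 3.40 (3.06 to 3.78) for *Cdkn1a* and 1.31 (1.26 to 1.37) for *Mdm2*. Their number is too small, and each genotype has too few libraries, to say whether such nuclei were more frequent in either genotype.

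**Figure D4:**
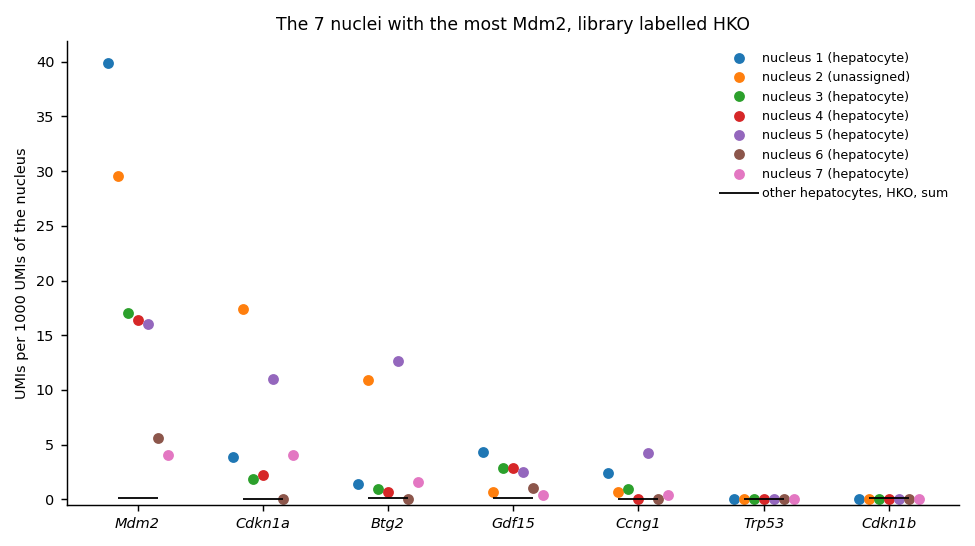
UMIs per 1000 UMIs of 7 genes in each of the 7 nuclei with the most *Mdm2*, all in the library labelled HKO. Each color is 1 nucleus and the short black lines give the sum of the other HKO hepatocytes, which lies close to 0 on this axis. *Cdkn1a*, *Btg2*, *Gdf15* and *Ccng1* stand above the lines in most of the nuclei, and *Trp53* and *Cdkn1b* are at 0 in all 7.

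Whether the genes were detected together in hepatocytes was then examined within each library, again after thinning to 1000 UMIs. In the library labelled HKO, *Gdf15* was detected in 33 of the 163 nuclei with *Cdkn1a* (20.2%, 14.4 to 27.2) and in 6.49% (5.77 to 7.27) of the 4266 without, a ratio of 3.12 (2.10 to 4.48). *Btg2* was detected in 17.8% and 6.94%, a ratio of 2.56 (1.69 to 3.76), and *Mdm2* in 20.9% and 13.6%, a ratio of 1.54 (1.05 to 2.17). Without the nuclei with the most *Mdm2*, the ratios were 2.84 (1.86 to 4.17) for *Gdf15* and 2.28 (1.45 to 3.43) for *Btg2*, while that of *Mdm2* became 1.35 (0.90 to 1.97) and no longer excluded 1. Thinned to 2000 UMIs, with 293 nuclei with *Cdkn1a*, *Gdf15* gave 2.00 (1.53 to 2.59) in place of 3.12, *Btg2* 2.08 (1.62 to 2.64) and *Mdm2* 1.37 (1.10 to 1.69). In the Flox library only 56 nuclei had *Cdkn1a*. *Btg2* was found in 17.9% of them and in 7.58% of the others, a ratio of 2.36 (1.12 to 4.37), and the intervals of *Gdf15*, at 1.42 (0.57 to 2.94), and *Mdm2*, at 1.56 (0.71 to 2.99), included 1. At 2000 UMIs, with 120 such nuclei, *Btg2* gave 1.38 (0.87 to 2.08), which no longer excluded 1, and *Gdf15* 1.5 (1.01 to 2.16).

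Pairs that do not involve *Cdkn1a* were counted in the same way. *Gdf15* was detected more often in nuclei with *Ccng1* than in those without, by 1.63 (1.15 to 2.25) in Flox and 2.01 (1.25 to 3.07) in HKO, and more often in nuclei with *Btg2*, by 1.53 (1.14 to 2.01) and 2.14 (1.53 to 2.95). At 2000 UMIs the Flox ratios were 1.07 (0.85 to 1.34) with *Ccng1* and 1.13 (0.94 to 1.34) with *Btg2* and no longer excluded 1, and the HKO ratios were 1.35 (1.0 to 1.79) and 1.81 (1.47 to 2.22). Of the daHep markers, *Klf6*, a transcription factor, was detected in 18.7% of HKO nuclei with *Gdf15* and in 6.58% of those without, a ratio of 2.84 (2.10 to 3.79), and of 1.89 (1.53 to 2.31) at 2000 UMIs. *Nrg1*, which encodes the growth factor neuregulin 1, gave a ratio of 1.83 (1.26 to 2.58) with *Gdf15* and of 1.54 (0.88 to 2.51) with *Cdkn1a*.

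A more precise comparison used the UMIs left over after thinning, so that nuclei were sorted by *Cdkn1a* in 1 set of UMIs and measured in another. *Gdf15* was at 189 against 107 CPM in Flox, a ratio of 1.77 (1.38 to 2.24), and at 224 against 78.3 CPM in HKO, a ratio of 2.86 (2.47 to 3.31). *Ccng1* gave 1.63 (1.08 to 2.36) and 2.05 (1.62 to 2.58), *Mdm2* 1.67 (1.30 to 2.12) and 2.05 (1.81 to 2.32), and *Btg2* 1.23 (0.87 to 1.70) and 2.20 (1.86 to 2.58). *Gdf15*, *Ccng1* and *Mdm2* thus stood higher beside *Cdkn1a* in both libraries. *Btg2* did so in HKO, and its interval in Flox included 1. *Trp53* gave 0.91 (0.56 to 1.41) and 1.13 (0.84 to 1.49), and *Cdkn1b* 1.20 (0.84 to 1.66) and 1.24 (1.0 to 1.51). Without the nuclei with the most *Mdm2*, the HKO values were 2.69 for *Gdf15*, 1.96 for *Ccng1*, 2.13 for *Btg2* and 1.40 (1.20 to 1.62) for *Mdm2*, the gene most affected.

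Among the 6 genes other than *Cdkn1a* with enough UMIs, 0 in Flox and 4 in HKO were at least 2-fold higher beside *Cdkn1a*, and 2 in HKO without the nuclei with the most *Mdm2*. The shares of all genes at least 2-fold higher were 6.68% of 13536 and 3.54% of 12841, and at least 2-fold lower 18% and 6.96%. The other p53 targets had a median log2 ratio of 0.39 in Flox, with 7 of 35 at least 2-fold higher and 2 lower, and of 0.62 in HKO, with 10 of 36 higher and 0 lower. The HKO values of this list include the nuclei with the most *Mdm2*, and the list was not counted without them. Nuclei with *Cdkn1a* came from the same library as those without, and deeper nuclei had more UMIs left over, but each value is a share of those UMIs.

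**Figure D5:**
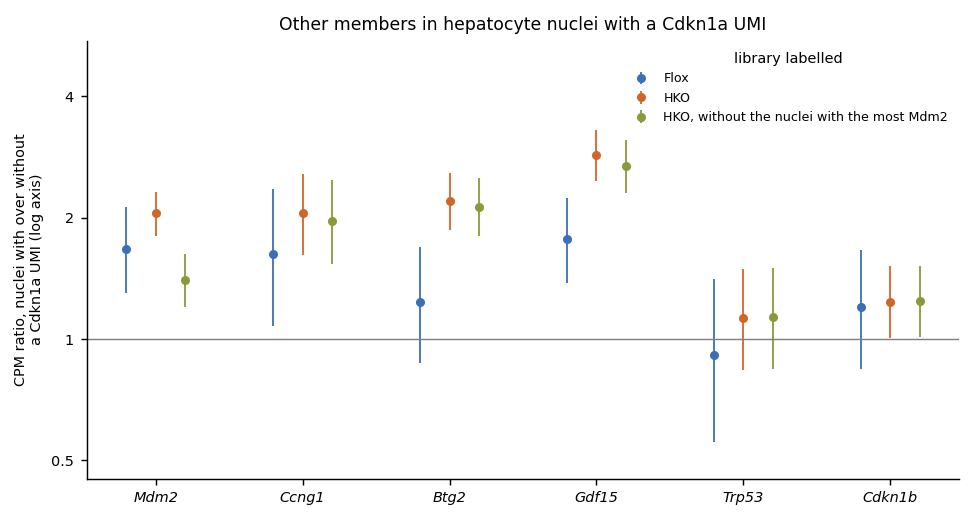
Ratio of CPM between hepatocyte nuclei with and without a *Cdkn1a* UMI after thinning, measured in the UMIs left over, on a log axis with 95% counting intervals. *Mdm2*, *Ccng1*, *Btg2* and *Gdf15* lie above 1 in the library labelled HKO, from 2.05 to 2.86 (orange), and without the nuclei with the most *Mdm2* from 1.40 to 2.69 (green), while *Trp53* lies close to 1 in both libraries.

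The genes were also compared between hepatocytes with and without daHep markers (*Nrg1*, *Anxa2*, *Sox4*, *Klf6* and *Jun*), since the study follows these cells through MASH. At least 2 of the 5 markers were detected after thinning in 34 and 121 nuclei, and levels were again taken from the UMIs left over. *Gdf15* was at 309 against 106 CPM in Flox, a ratio of 2.90 (2.28 to 3.64), and at 327 against 77.5 CPM in HKO, a ratio of 4.22 (3.63 to 4.88). *Cdkn1a* was at 52.8 against 11.2 CPM, from 13 UMIs, a ratio of 4.70 (2.49 to 8.13), and at 124 against 36.9 CPM, which gives a ratio of 3.36 (2.63 to 4.25). *Btg2* was at 414 against 81.4 CPM in Flox and 190 against 80.8 CPM in HKO, ratios of 5.09 (4.13 to 6.2) and 2.35 (1.94 to 2.84). *Cdkn1a*, *Gdf15* and *Btg2* were therefore higher in these nuclei in both libraries. The paper itself names *Gdf15* in the panel of daHep genes from which the 5 markers come. It also reports *Cdkn1a* and *Gdf15* in a larger share of daHep than of other hepatocytes. The result for *Gdf15* is thus not independent of the way the markers were chosen.

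*Mdm2*, at 1.12 (0.76 to 1.60) and 1.31 (1.08 to 1.57), and *Ccng1*, at 1.13 (0.60 to 1.94) and 1.57 (1.13 to 2.13), were higher by less than 2-fold in HKO, and their Flox intervals included 1. *Trp53* was at 0.89 (0.47 to 1.52) and 1.17 (0.81 to 1.63), and *Cdkn1b* was lower in Flox, at 0.49 (0.23 to 0.89) from 10 UMIs, and at 0.98 (0.73 to 1.28) in HKO. Of 7 genes, 3 were at least 2-fold higher in each library and 1 and 0 at least 2-fold lower, where 7.94% and 6.12% of all genes were higher and 25.3% and 9.52% lower. Between the libraries, the ratio of *Cdkn1a* was 3.28 (2.92 to 3.69) in the remaining hepatocytes, against 2.35 (1.30 to 4.61) in those with the markers. For *Gdf15* the ratio was 0.73 (0.69 to 0.77) in the remaining hepatocytes and 1.06 (0.81 to 1.40) in those with the markers.

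Lists of pathway genes set the 10 genes beside their neighbors in hepatocytes. Of 37 other p53 targets, 4 were at least 2-fold higher in the library labelled HKO and 1 was lower, beside 6.92% and 5.02% of all genes, and their median log2 ratio was 0.05, beside −0.004 over all genes. The 4 were *Eda2r*, a TNF receptor family member, at 2.70 and 6.41 CPM, which gives a ratio of 2.38 (1.88 to 3.02), *Phlda3*, an AKT inhibitor, with 11 and 31 UMIs, *Pmaip1*, the proapoptotic NOXA, with 5 and 15 UMIs, and *Tnfrsf10b*, the TRAIL receptor, with 37 and 56 UMIs. *Dcxr*, a xylulose reductase, was lower, at 26.1 and 11.4 CPM, which gives a ratio of 0.44 (0.38 to 0.50). A majority of p53 targets thus differed by less than 2-fold, as did most of the 10 genes. None of 14 regulators of p53 reached 2-fold, and their median log2 ratio was 0.25, from *Chek1*, a checkpoint kinase, at 0.96 (0.68 to 1.33) to *Mdm4*, the MDM2 partner that inhibits p53, at 1.36 (1.32 to 1.39).

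Of 17 genes of cyclins, CDKs, Rb and their partners, 3 were at least 2-fold higher in the library labelled HKO and 0 lower. Of all genes, 6.92% were higher and 5.02% lower by that much. In all, 11 of the 17 were higher and 6 lower, with a median log2 ratio of 0.11, and the lowest ratio was that of *Cdk4*, the kinase partner of cyclin D1, at 0.67 (0.62 to 0.72). *Ccnd1* (cyclin D1) was at 18.3 and 73.3 CPM, which gives a ratio of 4.0 (3.69 to 4.34), *Myc*, a growth-promoting transcription factor, at 6.54 and 16.6 CPM, which gives a ratio of 2.54 (2.19 to 2.95), and *Ccnd2* (cyclin D2) had 38 and 56 UMIs. Of 12 proliferation markers 6 were at least 2-fold higher, beside 6.92% of all genes, with a median log2 ratio of 0.65. *Mki67*, the Ki-67 antigen, had 44 and 175 UMIs, a ratio of 6.66 (4.76 to 9.50), *Top2a* (topoisomerase II alpha) 147 and 329 UMIs, and *Cenpe*, a kinetochore motor, 32 and 80 UMIs. *Cenpf* (54 and 75 UMIs), *Rrm2* (89 and 122 UMIs) and *Ndc80* (25 and 37 UMIs) were the other 3. The paper reports comparable proliferation scores and *Pcna* in the hepatocyte cluster of both genotypes. Its score was computed per nucleus from another, longer gene list. In its chow and MASH nuclei, proliferating cells form a cell type of their own. Here cycling nuclei were not set apart from hepatocytes and single genes were summed, so that the 2 measures are not alike. Here *Pcna*, counted with the cyclins, had a ratio of 1.13 (0.95 to 1.33).

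Of 11 other cell cycle inhibitors, 1 was at least 2-fold higher and 0 lower, beside 6.92% and 5.02% of all genes. It was the stress gene *Gadd45g*, at 34.1 and 99.7 CPM, which gives a ratio of 2.92 (2.75 to 3.11). The median log2 ratio of the 11 inhibitors was 0.15. Of 8 regulators of *Gdf15*, 1 was at least 2-fold higher and 0 lower, beside the same shares of all genes. It was the immediate early gene *Egr1*, at 7.56 and 15.9 CPM, which gives a ratio of 2.10 (1.82 to 2.43). The median of the 8 regulators was 0.37, whereas *Gdf15* itself was lower. Of the 5 daHep markers, 4 were at least 2-fold higher, beside the same share of all genes, with a median of 1.21. The markers were taken from the study itself and are no independent evidence of that direction. All of these are counts and medians of 1 library against another.

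Over the 12 sums of 6 types in 2 libraries, which share libraries and depth, the genes whose log2(CPM + 5) was most like that of a few of the 10 are given as a description. Among 12589 genes with at least 200 UMIs, *Ecpas*, *Blvrb* and *Wdr91* were closest to *Cdkn1a*, with Pearson's r of 0.91, 0.91 and 0.90. *Abcb4*, the phospholipid export pump of the bile canaliculus, and *Glud1*, a mitochondrial glutamate dehydrogenase, were among the closest to *Gdf15*, with r of 0.96 and 0.94. *Ripk2*, *Tmem185b* and *Pinx1* were closest to *Ccng1*, at 0.94, 0.93 and 0.92, and *Acer2*, *Gm15270* and *Bcas3* to *Cdkn1c*, at 0.91, 0.90 and 0.90.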

How the data were processed

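Liver nuclei of 2 libraries, 1 per genotype, were analysed. The authors deposited raw UMI counts per gene and barcode, made with Cell Ranger 8.0.1 on GRCm38 with intronic reads excluded and no normalization. Gene positions are from the reference annotation of that build. Nuclei with at least 300 detected genes were kept, and the highest Scrublet scores (scanpy 1.11.5) were removed at a rate of 0.8% per 1000 barcodes, 701 and 920 barcodes. A nucleus was given a non-hepatocyte type with at least 3 UMIs from at least 2 of its markers at 1 per 1000 UMIs or more, and called a hepatocyte when hepatocyte markers reached 4 per 1000 and no other type passed. 2 markers that hepatocytes carried were not used. Names stand for a resemblance by markers.

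UMIs were summed per type and library. With 1 library per genotype no test was run: CPM carry exact Poisson, ratios exact conditional binomial and shares Clopper-Pearson intervals (scipy 1.17.1), and ratios carry no pseudocount. A level of 0 UMIs is given the limit of 3 counts, and a ratio with 0 UMIs the end of its exact interval. Calculations were tested on simulated data. Named were all 10 genes and, of each list, genes at least 2-fold different with at least 20 UMIs, or else the highest and lowest. For some of the genes, those with the most similar levels across types were also named, and 1 of these is not reported here. Genes and lists were chosen with earlier results of these data known. Alternatives were TMM factors (edgeR 4.0.16), median-of-ratios factors, equal weight per nucleus, other filters, depths, ranges and nuclei left out. No column was left unmapped (0).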

Additional observations from a re-analysis of the deposited data

Results flagged for a closer look

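*Cdkn1a* stood apart between cell types under the same contrast. Its ratio of HKO to Flox was 0.70 (0.497 to 0.999) in macrophages and 3.52 (3.17 to 3.92) in hepatocytes. Its intervals lay on opposite sides of 1, in macrophages only just. The median log2 ratio of all genes in macrophages was −0.094, and 0.022 with TMM factors, so that the macrophage interval depends on the scaling. With 1 library per genotype, the difference between the types was not tested.

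Nuclei that met no cell type's rule, 77 and 512 of them with median depths of 1063 and 897 UMIs, were outside the comparisons above. *Mdm2* had a ratio of 2.82 (1.45 to 6.26) in them, from 9 UMIs in the Flox library, and 2.09 (1.07 to 4.68) without the single nucleus with 46 *Mdm2* UMIs. *Gdf15* had 1 UMI in the Flox library and 82 in the library labelled HKO, a ratio of 11.7 (2.04 to 467), which rests on that 1 UMI. These differences were not tested either.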

How the results depend on the processing

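No paired analysis was possible because each genotype has 1 library. For the same reason no library could be left out. No direction of a called value reversed under any alternative run. The ratio of *Cdkn1a* in hepatocytes was at least 2-fold under all of them, from 3.3 when nuclei with a UMI of another type's markers were left out to 3.80 without nuclei with daHep marker UMIs. With no minimum of UMIs, 2 of the 10 genes were at least 2-fold higher in hepatocytes, the added gene being *Cdkn2b* with 0 and 2 UMIs, too few to give a fold. In cholangiocytes 1 gene, *Mdm2*, was at least 2-fold higher with TMM factors, with median-of-ratios factors and with equal weight per nucleus, and 0 otherwise, and the first 2 of these shifted the median log2 ratio of all genes there to 0.17. With equal weight per nucleus the median log2 ratio was 0.14 for p53 targets, 0.25 for other cell cycle inhibitors (0.245) and 0.71 for proliferation genes, and with at least 100 UMIs it was 0.89 for the last. With only the lowest and highest 20% of the zone score, *Mdm2* in zone 3 stood 1.14 times over zone 1 in Flox. Thinned to 2000 UMIs, *Gdf15* was detected 2.00 times as often beside *Cdkn1a* in HKO, in place of 3.12 times. Of the remaining values, 138 that answer a comparison and 200 of single genes moved by less than their counting interval, and 8 of single genes by more, none of which reached 2-fold. Leaving out nuclei with daHep markers or with the most *Mdm2* was chosen after seeing the data. The causes of these shifts were not tested. Counting error limited *Cdkn1c*, *Cdkn2a* and *Cdkn2b* in hepatocytes, and comparisons in cholangiocytes and T cells.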
